A study of Homo sapiens with 12 samples.

Results

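The DEAD box and DEAH box proteins are the largest families of RNA helicases, and the peaks of N4-acetylcytidine (ac4C) in their own transcripts are described here. The members were taken by symbol: every peak whose gene symbol starts with DDX or DHX followed by a digit, with pseudogenes and antisense symbols left out. They were 1043 of 140401 listed peaks, in 46 of 10992 genes, and 32 of the genes were DDX and 14 DHX. RefSeq names 55 protein-coding genes of both families (DDX58 stands there as RIGI), so 9 had no listed peak: DDX28, DDX4, DDX43, DDX47, DDX53, DDX60, DDX60L, DHX35 and DHX58. The symbols left out were DDX11L17, DDX12P, DDX19A-DT and DHX40P1.

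The peaks came from ac4C-RIP-seq, in which RNA fragments of about 200 nt are captured with an antibody to ac4C and sequenced. H1, a long-established line of human embryonic stem cells, was used. The knockdown (KD) cells carried a short hairpin RNA against NAT10, the acetyltransferase that writes ac4C, from a lentivirus with GFP. They were cultured for 48 h, enriched for GFP and then grown on in TeSR-E8 under puromycin at 0.5 ug per ml. The other group is labelled wild type (WT), and no control hairpin is named for it. The growth protocol given for all samples names the medium PGM1 and plates coated with Matrigel. Effects of transduction, selection and medium and the effect of less NAT10 cannot be told apart. Of 12 libraries, 2 per genotype were immunoprecipitates, and each of these 4 has its own peak list (KD 1, KD 2, WT 1 and WT 2). Neither input nor IgG libraries were analysed here, so a gene with fewer peaks and a gene with less RNA cannot be told apart.

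DEAD and DEAH box helicases use ATP to unwind short RNA duplexes or to strip proteins from RNA, and are named after amino acids in a conserved motif of the helicase core. They drive the rearrangements of the spliceosome, the assembly of both ribosomal subunits, export of mRNA, translation initiation and mRNA decay. ac4C is a cytidine with an acetyl group on its base, known best from ribosomal and transfer RNA, and its extent in mRNA is debated.

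The lists held 27787 and 36476 peaks in KD and 37988 and 38150 in WT, and read depth is unknown. NAT10 itself carried 0 and 0 peaks in KD, against 7 and 9 in WT. Of 11 pluripotency genes, 7 and 9 had a peak in KD and 11 and 10 in WT, while 11 genes of differentiated lineages had none in any list. Nothing in the labels says that the 2 libraries of a genotype came from separate cultures, so p-values measure only the spread between libraries, which may be technical. With 2 libraries against 2, the two-sided exact permutation test over 6 arrangements cannot go below p = 0.333, so no comparison of lists below could pass a threshold of 0.05.

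Helicase genes held fewer peaks in KD than in WT, and about as many of the genes were marked. The helicase peaks numbered 187 and 251 in KD, against 297 and 308 in WT. Both KD lists lay below both WT lists, with means of 219 ± 45.3 in KD and 302.5 ± 7.78 in WT (SD, n = 2 each). Their ratio was 0.724 (exact permutation p = 0.333). As a share of the whole list the helicases made up 0.673% (95% exact interval 0.58 to 0.776) and 0.688% (0.606 to 0.778) in KD, against 0.782% (0.696 to 0.876) and 0.807% (0.72 to 0.902) in WT. These Clopper-Pearson intervals cover counting error only, and each KD interval overlapped both WT intervals. The ratio of the shares was 0.856 (exact permutation p = 0.333). The number of all peaks had a ratio of 0.844. A helicase gene with any peak carried 5.05 and 6.12 peaks in KD and 7.62 and 7.51 in WT, a ratio of 0.739, against 0.81 over all genes (exact permutation p = 0.333 each). Helicase genes with a peak numbered 37 and 41 in KD and 39 and 41 in WT (exact permutation p = 1), with values that overlapped between the genotypes.

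The authors' score, which ranks peaks only within a list, did not separate the genotypes among helicase peaks. Their median percentile in the list was 54.2 and 57.2 in KD and 57 and 55.7 in WT (exact permutation p = 1). Helicase peaks had a median width of 100 nt in both KD lists and 125 nt in both WT lists, against 125 and 125 nt in KD and 125 and 150 nt in WT over all peaks. Peaks spanning over 1000 nt, which can hold introns, made up 25.7 and 23.9% in KD and 21.2 and 19.8% in WT. Over all peaks they made up 25.3 and 24.9% in KD and 22.8 and 24.1% in WT.

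Whole genes rarely changed state. A lost gene is one with a peak in WT 1 and WT 2 but in no KD list, a gained gene the reverse, and a kept gene has peaks in all 4. Kept genes were 29 of 46 helicases (63%), against a background of 32.3% of all genes with a peak. Of 37 helicases with a peak in both WT lists, 1 was lost (2.7%), against 12.8% of all such genes. Of 33 with a peak in both KD lists, 2 were gained (6.06%), against 17.1%. Helicase genes carried more peaks than most genes, with a median of 28 over the 4 lists among the kept ones, against 21 over all kept genes, and a gene with many peaks is more easily found in every list. Leaving out KD 1 raised the lost helicases to 4, and leaving out KD 2 raised them to 5. The share of all genes lost was not computed with a library left out.

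The lost gene was DHX40, whose peaks numbered 0 and 0 in KD and 5 and 3 in WT. No region of DHX40 was shared by both WT lists. Peaks carry numbers in the lists, and some numbers are missing. How the authors numbered or filtered peaks is not known here, so a missing number may stand for a removed peak, of the gene at that place or of a neighbour, or for none. Over whole lists 7213 and 8564 numbers were missing in KD and 6048 and 6713 in WT. At the place of DHX40, 1 was missing in each KD list. The gained genes were DDX51 and DHX37, both needed to make ribosomes. DDX51 had 5 and 7 peaks in KD and 0 and 0 in WT. Its peaks in KD had no percentile above 36.3 in KD 1 and 79.7 in KD 2, and 0 and 1 numbers were missing at its place in WT. DHX37, which frees the U3 RNA from the precursor of the small subunit, had 5 and 4 peaks in KD and 0 and 0 in WT, where 4 and 2 numbers were missing. Whether peaks of DHX37 were removed from the WT lists was not tested.

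In the full lists, whose lengths differed, peaks per gene shifted toward lower numbers in KD. In 15 of 46 helicases both KD lists held fewer peaks than either WT list (32.6%), against a background of 22.3% of all genes. In 4 helicases both KD lists held more (8.7%), against 16.6%. Among genes kept in all 4 lists, the helicases counted 12 of 29 with fewer (41.4%), against 31.9%, and 2 of 29 with more (6.9%), against 12.6%. Among kept genes with 12 to 58 peaks over the 4 lists, the full range of these helicases, the background was 32.9% with fewer and 12.9% with more. This range held 3162 of the 3553 kept genes, so it does not match the genes on peak number. The shares of helicases lie above the background for fewer peaks and below it for more, by a margin that was not tested. Leaving out WT 2 or KD 2 gave 23 helicases with fewer peaks. With each list cut to the length of the shortest, 13 helicases had fewer and 10 had more. Helicases with more numbered 10, 9 and 8 without KD 1, KD 2 and WT 2. The shares over all genes were not computed with cut lists or left-out libraries, so these counts have no background.

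**Figure D1:**
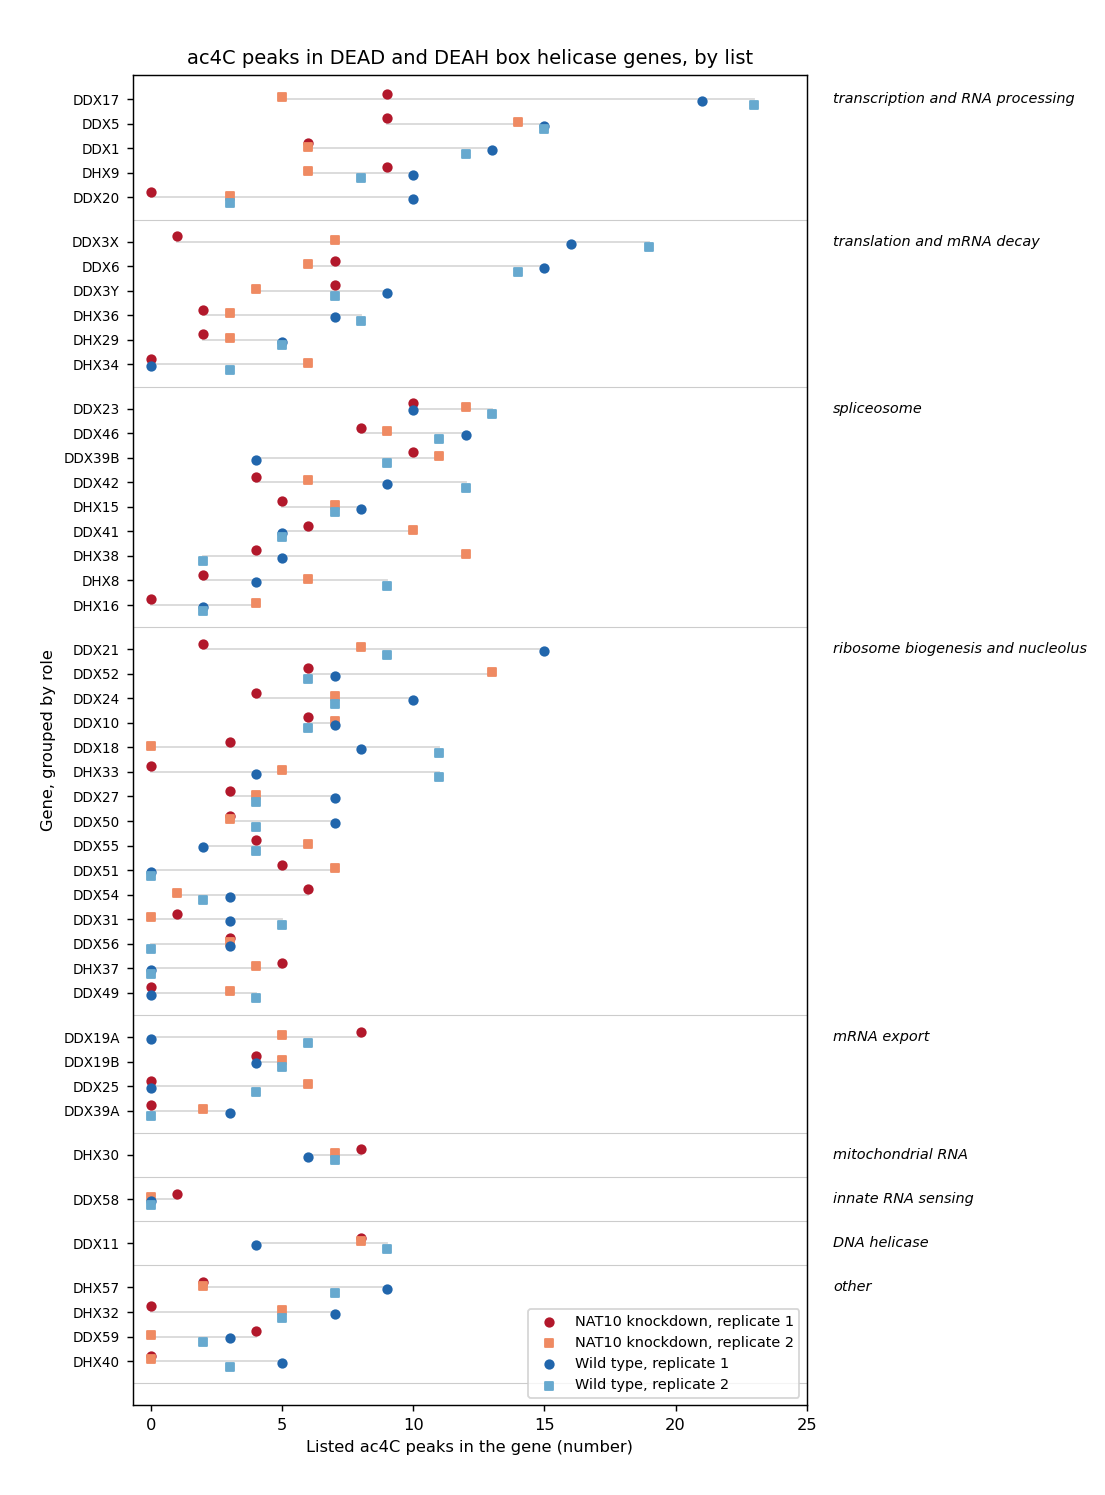
Listed ac4C peaks (number, x axis) in each of the 46 helicase genes (y axis, grouped by role), with 1 point per list for the 2 NAT10 knockdown and 2 wild-type libraries and a grey line over their range. DDX17 and DDX3X show the widest gaps, with 9 and 5 peaks in KD against 21 and 23 in WT for DDX17, and DDX51 and DHX37 have points above 0 in KD only.

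The 5 helicases of transcription and RNA processing held 33 and 34 peaks in KD and 69 and 61 in WT, and 3 of them had fewer in both KD lists. Over all genes this share was 22.3%, or 31.9% in genes kept in all 4 lists, and the roles were assigned with earlier results of these data known. DDX17, a coactivator of transcription that also acts in splicing and microRNA processing, had 9 and 5 peaks in KD and 21 and 23 in WT, the most of any helicase. Peak numbers missing at its place were 7 and 4 in KD and 2 and 3 in WT. DDX5, its close relative, had 9 and 14 peaks in KD and 15 and 15 in WT. At the place of DDX5, 9 and 2 numbers were missing in KD and 4 and 3 in WT. The groups did not overlap for either gene, but KD 2 stood 1 peak below WT for DDX5. DDX1, a member of the tRNA ligase complex, had 6 and 6 peaks in KD and 13 and 12 in WT. DHX9, which unwinds long duplexes in nuclear RNA, had 9 and 6 in KD and 10 and 8 in WT, and the groups overlapped. DDX20, part of the complex that loads Sm proteins on spliceosomal RNAs, had 0 and 3 in KD and 10 and 3 in WT.

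The 6 helicases of translation and mRNA decay held 19 and 29 peaks in KD and 52 and 56 in WT, and 4 of them had fewer in both KD lists, against the background of 22.3% of all genes or 31.9% of genes in all 4 lists. DDX3X, which helps ribosomes start on structured leaders, had 1 and 7 peaks in KD and 16 and 19 in WT. Numbers missing at its place came to 5 and 5 in KD and 6 and 6 in WT. DDX6, the decay factor of P-bodies, had 7 and 6 peaks in KD and 15 and 14 in WT. DHX36, which opens G-quadruplexes, had 2 and 3 in KD and 7 and 8 in WT. DHX29, which binds the small subunit during scanning, had 2 and 3 in KD and 5 and 5 in WT. At the place of DHX29, 4 and 8 numbers were missing in KD and 1 and 1 in WT. DHX34, of nonsense-mediated decay, varied within each genotype, with 0 and 6 in KD and 0 and 3 in WT.

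The 9 helicases of the spliceosome showed no common direction, with 49 and 77 peaks in KD and 59 and 70 in WT. DDX46 and DDX42, which act with the U2 particle at the branch site, had fewer peaks in both KD lists. DDX46 had 8 and 9 in KD and 12 and 11 in WT. DDX42 had 4 and 6 in KD and 9 and 12 in WT. DDX39B and DDX41 had more: 10 and 11 in KD against 4 and 9 in WT for DDX39B, which acts in early spliceosome assembly and mRNA export, and 6 and 10 against 5 and 5 for DDX41. The nearest lists of the genotypes stood at 10 in KD and 9 in WT for DDX39B, and 6 and 5 for DDX41. Some KD peaks of DDX39B lay outside its RefSeq bounds, and without these its genotypes overlapped. In each KD list, 5 of its peaks fell in the same gained region. Over all genes, 22.3% had fewer peaks in both KD lists and 16.6% had more. DDX23, a helicase of the U5 particle, had 10 and 12 in KD and 10 and 13 in WT. DHX15, which takes spliceosomes apart, had 5 and 7 in KD and 8 and 7 in WT. DHX38 and DHX8, both of the catalytic steps, varied between libraries, with 4 and 12 in KD and 5 and 2 in WT for DHX38, and 2 and 6 in KD and 4 and 9 in WT for DHX8. DHX16 had 0 and 4 in KD and 2 and 2 in WT.

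The 15 helicases of ribosome assembly and the nucleolus held 51 and 71 peaks in KD and 76 and 73 in WT. DDX21, DDX18, DDX50 and DDX31 had fewer in both KD lists, and the gained genes DDX51 and DHX37 had more. These are 4 of 15 with fewer and 2 of 15 with more, against 22.3 and 16.6% of all genes. DDX21, which links transcription by RNA polymerase I to rRNA processing, had 2 and 8 peaks in KD and 15 and 9 in WT. DDX18 had 3 and 0 in KD and 8 and 11 in WT, and KD 2 had 3 missing numbers at its place. DDX50 had 3 and 3 in KD and 7 and 4 in WT. The nearest lists of KD and WT stood at 8 and 9 for DDX21 and at 3 and 4 for DDX50. DDX31 had 1 and 0 in KD and 3 and 5 in WT, and KD 2 had 4 missing numbers at its place. DDX52 stood high in 1 library, with 6 and 13 in KD and 7 and 6 in WT. Its missing numbers were 9 and 3 in KD and 20 and 15 in WT. DDX24 had 4 and 7 in KD and 10 and 7 in WT, and DDX27 had 3 and 4 in KD and 7 and 4 in WT. The other members of the group (DDX10, DDX49, DDX54, DDX55, DDX56 and DHX33) had between 0 and 11 peaks in a list, with overlapping genotypes.

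The 4 helicases of mRNA export held 12 and 18 peaks in KD and 7 and 15 in WT, and none of them separated the genotypes. DDX25 had 0 and 6 in KD and 0 and 4 in WT. DHX30, a helicase of mitochondrial ribosome assembly, had 8 and 7 in KD and 6 and 7 in WT. DDX11, a DNA helicase needed for sister chromatid cohesion, had 8 and 8 in KD and 4 and 9 in WT. DDX58, the cytoplasmic sensor RIG-I, carried 1 peak, in KD 1. Of the 4 remaining genes, DHX57 had 2 and 2 peaks in KD and 9 and 7 in WT, and DHX32 had 0 and 5 in KD and 7 and 5 in WT. DDX59 had 4 and 0 in KD and 3 and 2 in WT.

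Below the level of the gene, peaks moved more. Same-strand peaks sharing 1 bp or more were merged across lists, which gave 599 helicase regions of 89916 in all. A region can hold peaks that share no base and were joined through a longer peak. The percentile of a region in a list is that of its highest ranked peak there. Of 119 helicase regions with a peak in both WT lists, 62 were lost (52.1%), against 52.2% over all genes, so the helicases stood at the background. Of 90 with a peak in both KD lists, 31 were gained (34.4%), against 48.1%. Kept regions were 32 of 599 (5.34%), against 3.4%. Most of the rest, 366 regions, had a peak in 1 list only. Lost regions lay in 24 genes with a median width of 352 nt, gained ones in 21 genes with 521 nt, and kept ones in 18 genes with 834.5 nt. The counts rest on the demand for both libraries: lost regions numbered 190 without WT 1 and 187 without WT 2, and gained ones 118, 91 and 48 without KD 1, KD 2 and WT 1. The shares over all regions were not computed with a library left out. Of the 29 kept helicases, 18 had a kept region (62.1%) and 11 had none (37.9%), against 55.4 and 44.6% of all kept genes. A lost region was found in 20 of them (69%), a gained one in 18 (62.1%) and both in 12 (41.4%), against 56.6, 47.7 and 26.6% of all kept genes, whose median number of peaks was lower.

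A lost or gained region was not always far from peaks of the other genotype. The nearest WT peak on the same strand was within 200 nt for 15 of 31 gained regions (48.4%), with a median gap of 287 nt, against 19% of all gained regions. The nearest KD peak was within 200 nt for 11 of 62 lost regions (17.7%), with a median gap of 1042 nt, against 20% of all lost regions. Some of these calls may therefore turn on where the edge of a peak fell. Peaks overlapped more within a genotype than between them: 54% of KD 1 peaks in helicases met a KD 2 peak and 38.2% the other way, and 44.8% of WT 1 peaks met a WT 2 peak and 40.3% the other way. Between genotypes the helicase values ran between 19.2 and 37.4%. The same order held over all peaks, at 50.6 and 35.6% between the KD lists, 37.4 and 36.3% between the WT lists, and 19.8 to 26.9% between genotypes.

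DDX3X had the most lost regions, 8 of them, all between 41343215 and 41349107 on chromosome X (plus strand, hg38, RefSeq gene 41333308 to 41364472). The highest ranked was chrX:41347633-41347832, at percentiles 99.7 and 98 in WT 1 and WT 2. The next was chrX:41343715-41343839, at 99.2 and 97.7. Its 1 gained region, chrX:41341465-41341614, lay 5′ of all of them and stood at percentiles 97.8 and 95.2 in KD 1 and KD 2. It was the only peak of DDX3X in KD 1.

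DDX5, on the minus strand of chromosome 17, changed in several short blocks. Its 2 lost regions ranked near the top of the WT lists, chr17:64504654-64504853 at percentiles 99.5 and 98.4 and chr17:64500529-64500853 at 93.4 and 98.6. The first of 3 gained regions, chr17:64502429-64502553, stood at 96.3 and 96.7 in KD. Between these blocks lay 4 kept regions, and the highest of these, chr17:64504204-64504328, had percentiles of 97.7 and 91.7 in KD and 81.7 and 96.6 in WT. DDX17 had 7 lost regions between 38484388 and 38494316 on chromosome 22, minus strand, and 1 gained region of 5714 nt at chr22:38499461-38505174, nearer the 5′ end. It had no kept region, although each of the 4 lists held at least 5 of its peaks.

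**Figure D2:**
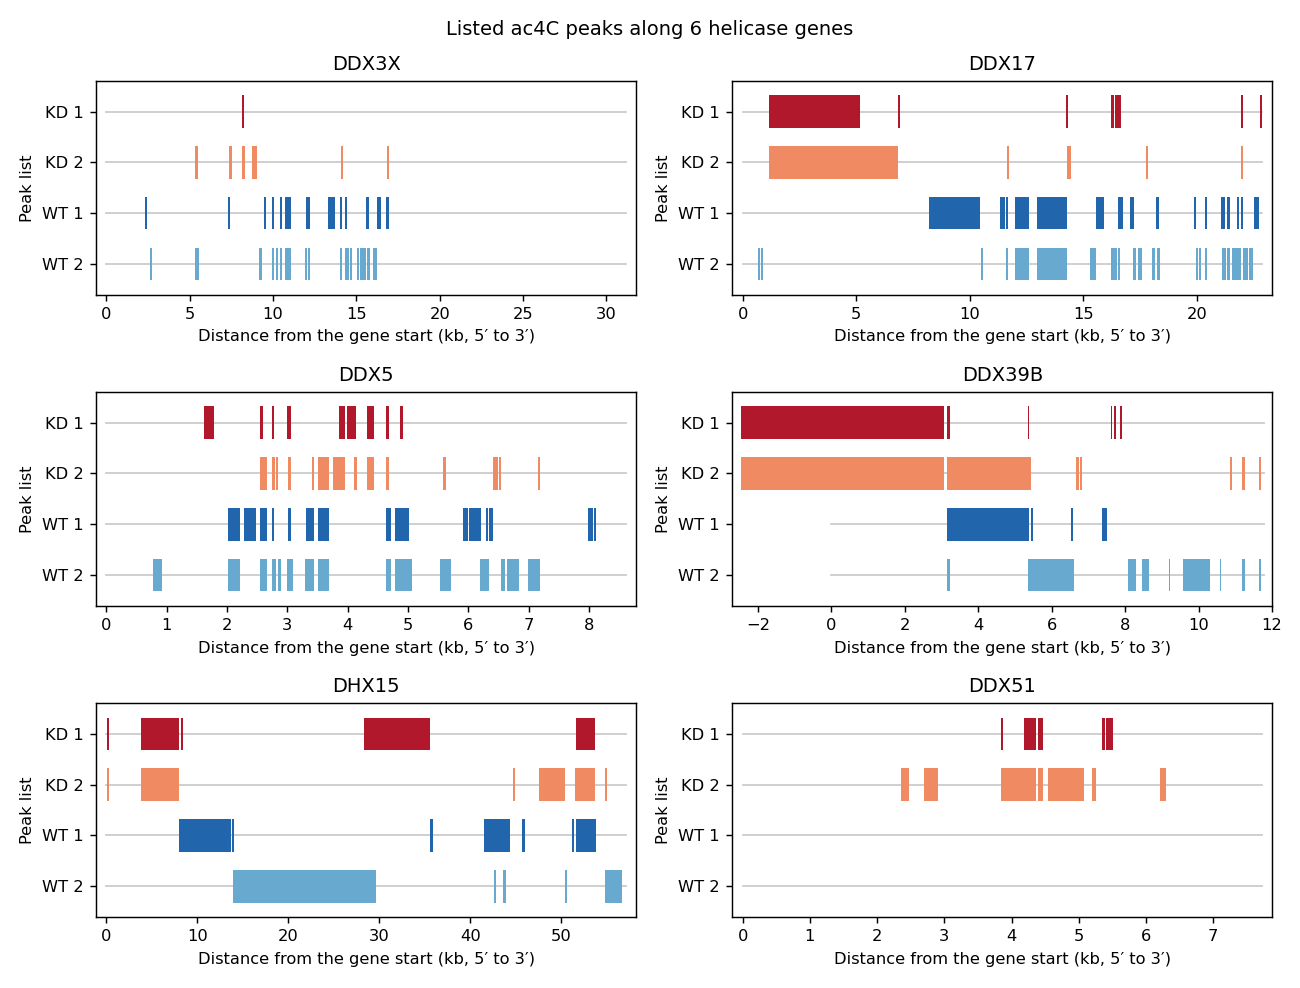
Listed ac4C peaks (bars, to scale) along 6 helicase genes, with distance from the RefSeq gene start in kb on the x axis, 5′ to 3′, and 1 row for each of the 2 KD and 2 WT lists. In DDX17 the long 5′ peak is found in the KD lists and most of the 3′ peaks in the WT lists, and DDX51 has peaks in KD 1 and KD 2 only.

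Several gained regions of high rank were long spans in the 5′ part of the gene. In DHX15 the region chr4:24576592-24580732 stood at percentiles 98.9 and 98.8 in KD. In DDX39B the region chr6:31538938-31544463, with 5 nested peaks in each KD list, stood at 97.9 and 97.3. These values belong to short peaks of 100 and 75 nt, and the peak of 5526 nt stood at 90.9 and 96.8. The region reaches beyond the RefSeq start of DDX39B, where RefSeq also lists the readthrough transcript ATP6V1G2-DDX39B. Its RNA therefore cannot be told apart between DDX39B and that transcript. In DDX23 the region chr12:48847337-48852169 stood at 98.8 and 94.5, and in DDX27 the region chr20:49219422-49224781 at 88.4 and 97.6. Shorter gained regions were found in DDX55, an assembly factor of the large subunit, in DDX52 and in DDX6. In DDX55 they were chr12:123605918-123605992 at 90.9 and 90.8 and chr12:123606068-123607489 at 93.8 and 92.2. In DDX6 the region chr11:118786234-118786533 stood at 95.1 and 73.3. Other lost regions of high rank lay in DDX21 (chr10:68973540-68977529, at 97.2 and 86.7 in WT) and in DDX1 (chr2:15628427-15628526, at 98.8 and 83.1 in WT).

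Regions kept in all 4 lists included chr17:43536424-43536498 in DHX8, whose score was infinite in both KD lists and stood at percentiles 43.1 and 98.3 in WT. The DDX41 region chr5:177515916-177515990 had 98.3 and 99.7 in KD and 70.7 and 86.8 in WT. In DDX52 the region chr17:37642121-37642731 had 98.2 and 94.3 in KD and 67.3 and 89.3 in WT. In DDX1 the region chr2:15599669-15602649 had 81.7 and 72 in KD and 90.7 and 99.4 in WT. Its KD 2 and WT 1 peaks shared no base and were joined only through longer peaks of KD 1 and WT 2. In DHX36 the region chr3:154315072-154316129 had 51 and 93.4 in KD and 95.6 and 92.6 in WT. Both orders of the genotypes thus occurred among the kept regions. DDX42, DDX3Y and DDX11 also had a region among the 10 of highest mean percentile.

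Helicase genes carried peaks at their starts more often in KD than in WT. A start peak is a peak that reaches within 50 nt of the RefSeq gene start (GRCh38.p14), a measure chosen after the data were seen. It was found in 11 of 37 helicase genes with a peak in KD 1 and 14 of 41 in KD 2, against 2 of 39 in WT 1 and 3 of 41 in WT 2. As shares these were 29.7% (95% exact interval 15.9 to 47) and 34.1% (20.1 to 50.6) in KD, against 5.13% (0.627 to 17.3) and 7.32% (1.54 to 19.9) in WT. The ratio of the means was 5.13 (exact permutation p = 0.333). Over all genes the shares were 14 and 15.6% in KD and 5.31 and 8.5% in WT, a ratio of 2.14 (exact permutation p = 0.333). Whether the helicases differed more than other genes was not tested. With peaks of at most 1000 nt the helicase shares were 13.9 and 20% in KD and 2.56 and 4.88% in WT, against 9.82 and 10.3% in KD and 4.27 and 7.5% in WT over all genes. With a window of 200 nt they were 37.8 and 48.8% in KD and 7.69 and 17.1% in WT, against 23.9 and 26.6% in KD and 12 and 18.5% in WT over all genes.

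**Figure D3:**
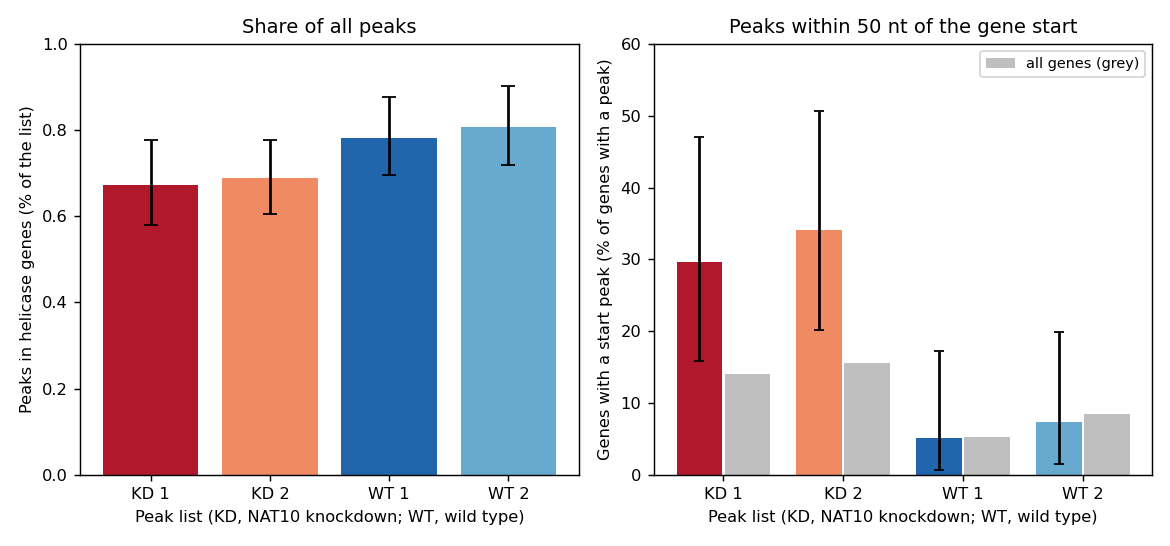
Left, peaks in helicase genes as % of each list, and right, helicase genes with a start peak as % of helicase genes with a peak, for the 2 KD and 2 WT lists, with 95% exact intervals and, in grey, the same share over all genes. The start peaks stand at 29.7 and 34.1% in KD and 5.13 and 7.32% in WT, where helicases lie close to all genes.

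A start peak in both KD lists and neither WT list was found in 6 of 46 helicases (13%), against 4.55% of all genes, and among genes kept in all 4 lists in 6 of 29 (20.7%), against 8.17%. The 6 were DDX23, DDX27, DDX39B, DDX41, DHX15 and DHX30. The opposite pattern was found in 1 of 46 (2.17%, DDX54), against 0.838%, and in 1 of 29 kept genes (3.45%), against 1.6%. In DDX54 a KD 1 peak at chr12:113183790-113185389, percentile 87.1, lay directly next to the lost start peak. With a start window of 200 nt, 0 helicases had a lost start peak. DDX24 had a start peak in all 4 lists. The count of 6 rose to 13 without KD 1 and to 10 without KD 2, and was 3 with peaks of at most 1000 nt. The matching shares over all genes were not computed, so these counts cannot be set against the backgrounds above. The count of 1 was 2 without WT 1. Of the gained start peaks, those of DDX23, DDX27, DDX39B and DHX30 were long spans whose other end lay kilobases downstream. The start peak of DDX41 covered 50 nt, at percentiles 35.5 and 95.6 in KD, and that of DHX15 covered chr4:24584274-24584538, at 64.3 and 78.4 in KD.

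The bases at these starts are shown because peaks there were gained in KD in 6 helicases, lost in 1 and kept in 1. Each line gives transcribed bases 21 to 50 counted from the RefSeq start (build GRCh38.p14), 5′ to 3′. Capitals mark bases under the start peak in both KD lists for the 6 gained genes, in both WT lists for DDX54 and in all 4 lists for DDX24.
DDX23 (chr12:48852114-48852143, minus strand): ggaaagatggcgacggctccgcgaCGTTGA
DDX27 (chr20:49219436-49219465, plus strand): CTTCTGCGACAACATGCTTGCGGACCTCGG
DDX39B (chr6:31541954-31541983, minus strand): TGTTGCTGCCGCCATACGCGCTCTCCCTGT
DDX41 (chr5:177516912-177516941, minus strand): AGGAGTCGGAACCCGAACGGAAGGTAGGAG
DHX15 (chr4:24584505-24584534, minus strand): agctgttggttccggccgcacCGTGTGGGC
DHX30 (chr3:47803158-47803187, plus strand): ggagccgcggctcatgcgcggtgcacAGAG
DDX54 (chr12:113185429-113185458, minus strand): ggcccgaatggcggccgacAAGGGCCCGGC
DDX24 (chr14:94081153-94081182, minus strand): tacagcggcggtttctgaggttcttcaCTC

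In DDX27, DDX39B and DDX41 all 30 bases lay under the peak in both KD lists, and in DDX23, DHX15 and DHX30 the 5′ edge of the peak fell inside the window in at least 1 list. The letters CCG, searched on the transcribed strand over the first 50 transcribed bases, were present in 6 of 6 gained starts. The lost start of DDX54 also held CCG, and the kept start of DDX24 did not. CCG was present in 77.6% of 58 helicase windows (some genes have several) and in 51.5% of 35092 windows of all genes. The letters CNN repeated 4 times in a row, a spaced run of cytidines, was present in 4 of 6 gained starts, 34.5% of helicase windows and 25.7% of all windows, and they can overlap CCG. The spaced run was absent from the start of DDX54 and present in that of DDX24. Windows were given for 41 of 46 members. These letters describe the starts and do not mark acetylated bases, since a peak does not resolve single cytidines.

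Along the whole gene, the median positions of helicase peaks in the full lists overlapped between the genotypes. Their median position, from 0% at the 5′ end to 100% at the 3′ end, was 51.2 and 63.3% in KD and 60.9 and 66.8% in WT (difference -6.63 percentage points, exact permutation p = 0.667). The difference was -0.596 without KD 1, -12.7 without KD 2 and -3.65 without WT 2. It was -12.5 with the stronger 50% of each list and -4.42 with peaks of at most 1000 nt (exact permutation p = 0.333 each). This is the smallest possible p, so the genotypes separated under these 2 filters. Over all genes the median position was 64.2 and 66.7% in KD and 74.5 and 72.6% in WT (exact permutation p = 0.333). With each gene split into 10 equal parts, the first part of helicase genes held 10.9 and 11% of their peaks in KD and 4.75 and 6.19% in WT, against 11.9 and 11.3% in KD and 6.64 and 9.06% in WT over all genes. The last part held 16.3 and 21.5% in KD and 22 and 27.4% in WT, against 24.1 and 25.9% in KD and 31.1 and 29.6% in WT over all genes. The same pattern was thus present in the background. Gained helicase regions had a median position of 37.5% and lost ones of 66.6%, against 54.1 and 73.5% over all genes. In 9 of the 12 helicases with both kinds (75%) the gained regions lay nearer the 5′ end by their medians, against 70.4% of all such genes. DDX6 had its gained region at 12.2% and its lost ones at a median of 93.3%, and DDX17 at 17.5 and 89.1%. DDX24, DDX41 and DHX30 ran the other way.

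**Figure D4:**
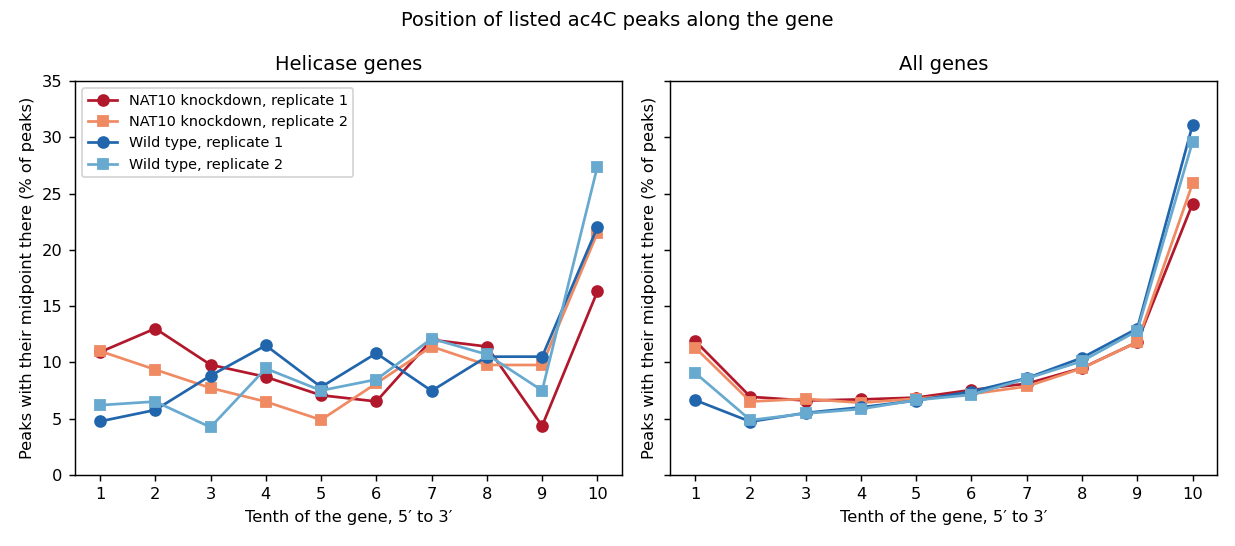
Share of peaks (% of the peaks of a list, y axis) with their midpoint in each of 10 equal parts of the gene, 5′ to 3′ (x axis), for helicase genes (left) and all genes (right), with 1 line per list (2 KD, 2 WT). The first part holds 10.9 and 11% of helicase peaks in KD and 4.75 and 6.19% in WT, and over all genes 11.9 and 11.3% in KD and 6.64 and 9.06% in WT.

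Close pairs of helicases did not always move together. DDX3X and DDX3Y, copies on both sex chromosomes, had 8 and 2 lost regions, and DDX3Y kept 7 and 4 peaks in KD, against 9 and 7 in WT, with overlapping genotypes. DDX21 and DDX50, neighbours on chromosome 10, both had fewer peaks in KD. DDX39A, the copy of DDX39B, had 0 and 2 in KD and 3 and 0 in WT. DDX19A had 8 and 5 in KD and 0 and 6 in WT, and DDX19B 4 and 5 in KD and 4 and 5 in WT. A region of 37984 nt assigned to DDX19B ran on past its RefSeq end into DDX19A. Reads from near-identical stretches of such pairs, and of DDX11 and its pseudogene DDX12P, may have been split or shared between copies, and how the authors treated them is not given in the sources used here.

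Small RNA genes lay under peaks of 3 helicases. The lost region of DDX5 at its 3′ side held the hairpin of MIR3064 in WT 1, and a DHX15 peak of WT 1, at percentile 70.4, coincided base for base with the hairpin of MIR573, outside the RefSeq bounds of DHX15. Both hairpins are shown 5′ to 3′ from RefSeq (GRCh38.p14), with the mature arms in capitals.
MIR3064 (chr17:64500774-64500839, minus strand): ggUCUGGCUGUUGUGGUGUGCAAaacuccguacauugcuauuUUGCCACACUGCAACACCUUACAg
MIR573 (chr4:24520192-24520290, minus strand): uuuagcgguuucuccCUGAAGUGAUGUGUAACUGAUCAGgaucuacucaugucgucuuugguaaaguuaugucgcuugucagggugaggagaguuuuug

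The third was MIR7106 in DDX54, under peaks at percentiles 97.6 and 92.1 in KD 1 and KD 2 and 30 in WT 1. A peak over a host gene does not tell the host transcript from the small RNA within it.

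Related helicases outside the DDX and DHX symbols were counted for comparison, from a list of 19 genes. They held 72 and 104 peaks in KD and 152 and 161 in WT. None of them was lost, 1 was gained, 9 were kept, 6 had other patterns and 3 (IFIH1, TDRD9 and DQX1) had no peak. Over all genes, 12.8% of those in both WT lists were lost and 17.1% of those in both KD lists were gained. Of all genes in any list, 32.3% were kept. SNRNP200, the helicase that unwinds U4 from U6, had 7 and 10 peaks in KD and 21 and 19 in WT, and EIF4A3, of the exon junction complex, had 2 and 2 in KD and 9 and 8 in WT. UPF1, the helicase of nonsense-mediated decay, ran the other way, with 14 and 15 in KD and 0 and 0 in WT.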

How the data were processed

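ac4C-RIP-seq peak lists of 4 immunoprecipitation libraries (KD and WT, 2 each) were used. Each deposited list gives, per the file headers, a peak's position, number, score, strand and gene. The score is the authors', its meaning is not given in the sources used here, and it served only to rank peaks as a percentile within a list. No score was below 10, and 44 were infinite. Peaks were called per library, not on pooled libraries. Per the submitters' processing notes the build was hg38, and the tools were HISAT2 2.2.1, fastp 0.21.1, bedtools 2.30.0 and SAMtools 1.12, with no roles given. The sources used here do not name the peak caller or its control library. The molecule label reads poly(A) RNA, whereas the labels' extract protocol describes ribosomal RNA removal. Coordinates count from 1.

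Members, roles and lists were chosen with earlier results of these data known. Named genes were those lost or gained, the 10 with the most peaks, those of the 10 highest ranked lost, gained and kept regions, close pairs, and the members of each role. Python 3.11.15, pandas 2.3.3 and scipy 1.17.1 merged peaks, matched gene bounds to RefSeq GRCh38.p14 (98.9% of helicase peaks lay within them) and ran exact permutation tests. The scripts were tested on simulated data. Peak counts showed no effect shared by same-numbered libraries (correlation of same-numbered deviations 0.0152 over 10992 genes). Whether same-numbered libraries were prepared together is not known here. Exon and UTR positions were not assigned, and sequences under most peaks were not used here.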

Additional observations from a re-analysis of the deposited data

How the results depend on the processing

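Of 145 alternatives over 17 results, 116 kept a ratio's or difference's direction or a count within 1.5 times, whatever the size of the ratio or difference. Another 25 moved a count further or left a ratio at 1, and 4 turned a direction; the start peak, position and fewer-or-more results were added after seeing the data. The ratio of helicase peaks (KD over WT) ran from 0.618 to 0.852, that of their share of the list from 0.828 to 0.87 and that of genes with a start peak from 3.5 to 6.23, all in the direction reported. The difference in median percentile, -0.665 as reported, was 0.657 with the stronger 50% of each list, -6.92 with lists cut to the shortest and -2.99 with peaks of at most 1000 nt, and ran from -2.2 to 0.875 when 1 library was left out. The difference in median position ran from -12.7 to -0.596 over all alternatives. The ratio of helicase genes per list, 0.975, ran from 0.925 to 1.02 without 1 library, and was 1 without WT 2. With the stronger 50% of each list, regions lost were 41 and kept 8, genes lost 2 and gained 0, and genes with a lost start peak 0. With lists cut to the shortest, 10 helicases had more peaks in KD. With peaks of at most 1000 nt, regions kept were 18 and gained start peaks 3. With a start window of 200 nt, lost start peaks were 0. Without 1 library, regions lost ran from 73 to 190, gained from 43 to 118 and kept from 40 to 48; genes lost from 1 to 5, with fewer peaks from 19 to 23, with more from 6 to 10; gained start peaks from 6 to 13 and lost ones from 1 to 2. With a replicate block the ratio of helicase peaks was 0.716 (exact sign-flip p = 0.5, the smallest it allows). The counts of genes and regions do not use the block, so they were carried over unchanged and are among the 116. The cause of these changes was not tested. For the counts of genes and regions, no background over all genes was computed under these alternatives. Read depth is unknown, so how far a missing peak reflects few reads was not tested.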
